A study of Mus musculus with 6 samples.

Results

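The miRNAs described here come from imprinted loci of the mouse genome that lie outside chromosome 12. They were chosen by name: mmu-miR-335-5p and mmu-miR-335-3p from Mest, mmu-miR-483-5p and mmu-miR-483-3p from Igf2, mmu-miR-675-5p and mmu-miR-675-3p from H19, and mmu-miR-296-5p, mmu-miR-296-3p and mmu-miR-298-5p from the Gnas region. Of these 9 names, 7 were among the 1546 mature miRNAs of the deposited values. MiR-483-5p and miR-675-5p were not listed and have no value here. Of the 7 listed miRNAs, 6 had at least 1 read, and 3 (miR-335-5p, miR-335-3p and miR-298-5p) passed the filter of a mean of at least 1 CPM (counts per 1000000 reads on all listed miRNAs) over all libraries.

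The livers of male C57BL/6 mice were profiled by small RNA sequencing. The NC group (3 libraries) ate a normal diet, and the MAFLD group (3 libraries) ate a high-fat diet. The paper's methods state that the diets began at 8 weeks of age and lasted 16 weeks, with 6 mice per diet, and the labels give 1 library per replicate without any mention of pooled livers. The MAFLD group is thus a model of fatty liver by diet alone, with no altered allele or drug.

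In an imprinted gene, the copy from one parent is active and the other is silenced, and many such genes act in growth before birth. Mest is active from the paternal copy and its intron holds the hairpin of miR-335. Igf2, a fetal growth factor active from the paternal copy, carries miR-483, and its neighbour H19, a long non-coding RNA active from the maternal copy, carries miR-675. Both are abundant in fetal liver and are largely shut down after birth. Gnas encodes the alpha subunit of the stimulatory G protein that passes hormone signals on to adenylate cyclase, and miR-296 and miR-298 are read from the strand opposite to it. A miRNA hairpin is cut into a 5p and a 3p arm, and the arm that is loaded into Argonaute finds its target mRNAs mainly through its seed, bases 2 to 8.

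The mature sequences of the 6 miRNAs that were read are shown from 5′ to 3′ to let the arms of miR-335, which carried most of the reads, be set beside the scarcer miRNAs. They were copied from RefSeq (GRCm38.p6), and the capitals mark the seed.
miR-335-5p: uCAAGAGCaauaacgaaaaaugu
miR-335-3p: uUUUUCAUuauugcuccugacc
miR-298-5p: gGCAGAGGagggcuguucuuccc
miR-296-5p: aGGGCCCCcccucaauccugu
miR-483-3p: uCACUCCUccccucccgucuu
miR-675-3p: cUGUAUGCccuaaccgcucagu

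No seed was shared between the 9 members, and none of the listed miRNAs with a mature sequence (1312 of 1546) had the seed of a member. The longest run that miR-335-5p shared with any other listed miRNA was 9 nt, and it was also 9 nt for miR-335-3p, so the arms of miR-335 had no near-identical copy among the miRNAs with a sequence. For miR-298-5p the longest shared run was 11 nt, with miR-7047-5p. The arms of miR-335 were poor in G and C (30.4% in miR-335-5p and 36.4% in miR-335-3p), where the median of the 420 tested miRNAs with a sequence was 47.8%. The other members were richer in G and C, between 54.5% and 68.2%.

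Each hairpin was placed on GRCm38, the build named in the submitters' processing notes, with GENCODE M21. Mir335 occupies 30741299 to 30741396 of chromosome 6 (plus strand), inside Mest and on its strand, and was intronic in all 7 Mest transcripts that span it. Mir483 lies on the minus strand of chromosome 7 from 142654924 to 142654996 and was intronic in all 7 Igf2 transcripts that span it. Mir675, on the same strand of chromosome 7 from 142577064 to 142577147, overlapped an exon in 3 of the 4 H19 transcripts there, and Igf2 lies 73618 bp away. Mir296 (chromosome 2, 174267047 to 174267125) and Mir298 (chromosome 2, 174267504 to 174267585) are minus-strand neighbours 378 bp apart. Neither lies in another annotated gene, and Nespas, the antisense transcript of the Gnas region, ends 14111 bp from Mir296 and 13651 bp from Mir298 on the same strand.

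The libraries held between 1336935 and 2549598 reads on miRNAs in the NC group and between 1534569 and 4685712 in the MAFLD group. The growth and treatment protocols in the labels describe HepG2, a human liver cell line, while the organism and tissue labels give mouse liver, which was used here. The tissue label was checked against hepatocyte miRNAs. MiR-122-5p, the defining miRNA of hepatocytes, was at 42159 to 85150 CPM in the NC libraries and at 55196 to 70528 CPM in the MAFLD libraries. NC replicates 1 and 2 stood apart from the other libraries in brain-typical miRNAs. The 7 markers of that list, each read in at least 1 library, summed to 478 and 782 CPM there, to 56.1 CPM in NC replicate 3 and to 49.3 to 75.6 CPM in the MAFLD libraries. MiR-9-5p made up most of this sum in NC replicates 1 and 2, at 344 and 530 CPM. Apart from miR-219a-5p (0.392 and 0 CPM there), each marker was higher in both than in any other library. The fold changes of the tested members, the arm shares and the list medians below are therefore also given without NC replicates 1 and 2. The p-values from limma rest on the spread between these livers, moderated by the spread of the other miRNAs tested. The permutation p-values rest on these livers alone.

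MiR-335-3p, the arm of the Mest hairpin with the most reads, was higher in CPM in each of the 3 MAFLD libraries than in any of the 3 NC libraries. Its level was 14.9, 9.56 and 12.7 CPM in the NC libraries (38, 15 and 17 reads) and 31.5, 22.8 and 32.6 CPM in the MAFLD libraries (84, 107 and 50 reads). MAFLD replicate 2 was the lowest of its group, and the 95% Wilson interval of its CPM (18.9 to 27.6, counting error only) overlapped with those of NC replicate 1 (10.9 to 20.5) and NC replicate 3 (7.94 to 20.4). NC livers averaged 12.4 ± 2.69 CPM and MAFLD livers 29.0 ± 5.35 CPM (SD, n = 3 each), a ratio of 2.34. In bulk liver, a higher level per cell and more cells of a type that holds the miRNA cannot be told apart.

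The log2 fold change of miR-335-3p was 1.17 (standard error 0.45, 95% interval 0.21 to 2.13) on the log2(CPM + 1) scale. Its unadjusted p was 0.0204 and its adjusted p was 0.212 (limma with Benjamini-Hochberg adjustment over 501 miRNAs), which ranked it in position 47, so the difference did not pass the adjusted p of 0.05. With 3 livers in each group, a two-sided exact permutation test cannot fall below the p = 0.1 found here. Over all miRNAs tested, 0.200% (1 of 501, miR-802-5p, which is no member) passed the adjusted p, and 13.4% (67) were higher in MAFLD livers at an unadjusted p under 0.05 and 1.5-fold. MiR-335-3p was the 1 of the 3 tested members past this looser threshold. It lost this place without NC replicate 2 (unadjusted p = 0.0827, limma), without MAFLD replicate 1 (0.0859) and without MAFLD replicate 3 (0.0953), so the call depended on single libraries. It was also the 1 of 3 whose groups did not overlap, with MAFLD higher, which held for 15.2% of all miRNAs tested.

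**Figure D1:**
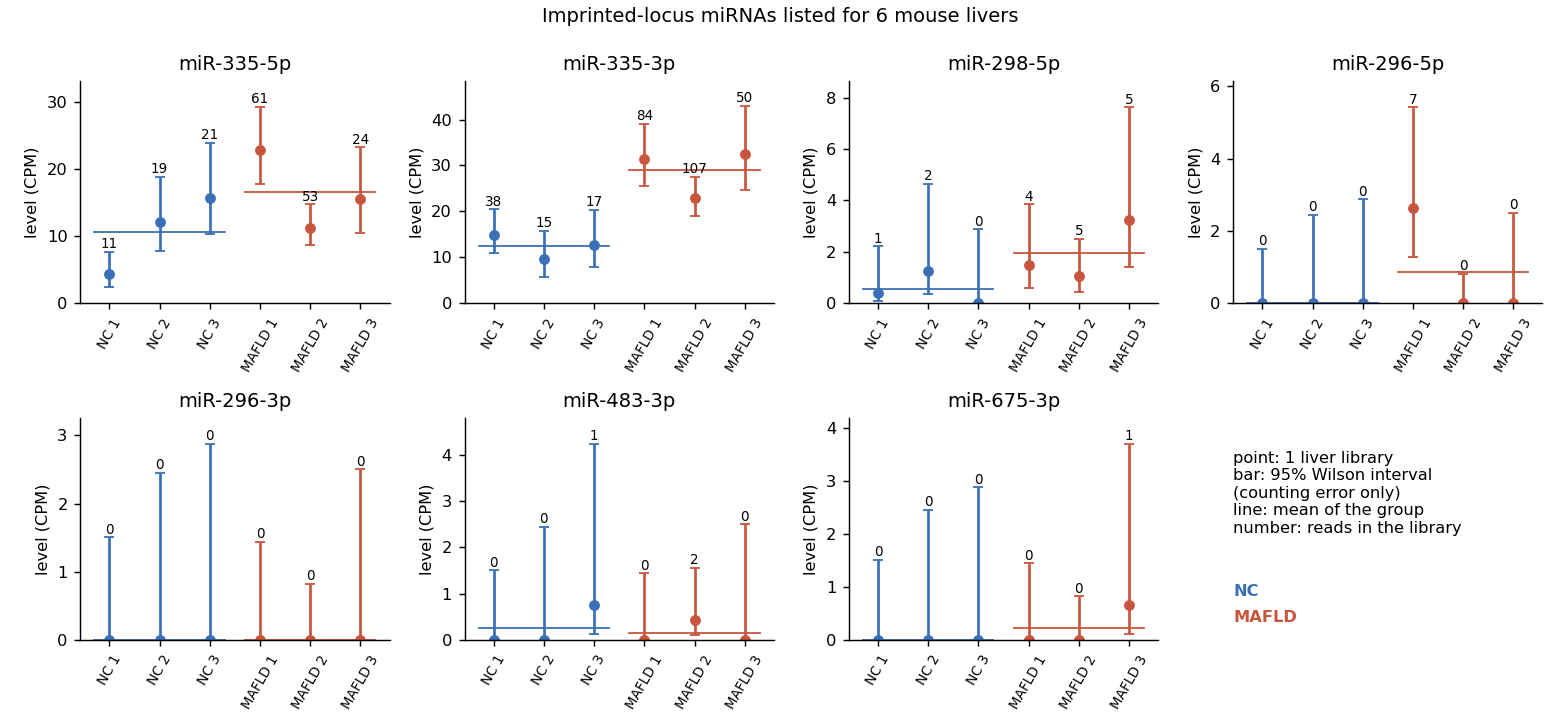
Level in CPM (vertical axis, from 0) of the 7 listed miRNAs in each library, with the reads printed above each point, the 95% Wilson interval of counting error as a bar and the group mean as a line. The MAFLD points of miR-335-3p lie between 22.8 and 32.6 CPM, above the NC points at 9.56 to 14.9 CPM, while the groups of the other 6 miRNAs overlap.

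MiR-335-5p, the other arm of this hairpin, did not separate the diets. Its level was 4.31, 12.1 and 15.7 CPM in the NC libraries (11, 19 and 21 reads) and 22.9, 11.3 and 15.6 CPM in the MAFLD libraries (61, 53 and 24 reads). NC replicate 1 was below all other libraries and MAFLD replicate 1 above them, and between these ends the groups overlapped. NC livers averaged 10.7 ± 5.82 CPM and MAFLD livers 16.6 ± 5.85 CPM (SD, n = 3 each). The log2 fold change was 0.69 (standard error 0.54, 95% interval −0.46 to 1.84), with an adjusted p of 0.482 from limma and p = 0.5 in the two-sided exact permutation test. Without NC replicate 1 it was 0.20, and without NC replicates 1 and 2 it was 0.023. Without MAFLD replicate 1 it was 0.44. With all libraries it was 0.27 with median-ratio scaling, 0.40 with miR-148a-3p left out of the total, and 0.25 with both edgeR and DESeq2, so its size depended on single libraries and on the scaling.

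The arms of miR-335 were then compared within each library, which does not depend on how libraries are scaled. Of the 500 reads of both arms in all libraries, 62.2% were on the 3p arm. The 5p share was 22.4% (95% Wilson interval 13.0 to 35.9), 55.9% (39.5 to 71.1) and 55.3% (39.7 to 69.9) in NC replicates 1 to 3, so NC replicate 1 stood apart from the rest of its group. It was 42.1% (34.3 to 50.2), 33.1% (26.3 to 40.7) and 32.4% (22.9 to 43.7) in MAFLD replicates 1 to 3, between the NC values. The mean was 44.5% ± 19.1 (SD, n = 3) in NC livers and 35.9% ± 5.37 (SD, n = 3) in MAFLD livers, and the difference of −8.66 percentage points was smaller than the spread between NC livers (two-sided exact permutation test, p = 0.4). Without NC replicate 1 the difference was −19.7 percentage points, without NC replicate 2 it was −2.98, without NC replicate 3 it was −3.29, and without NC replicates 1 and 2 it was −19.4, so its size depended on single libraries. The difference between the diets in miR-335-3p was therefore not shown to be unlike that in miR-335-5p.

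**Figure D2:**
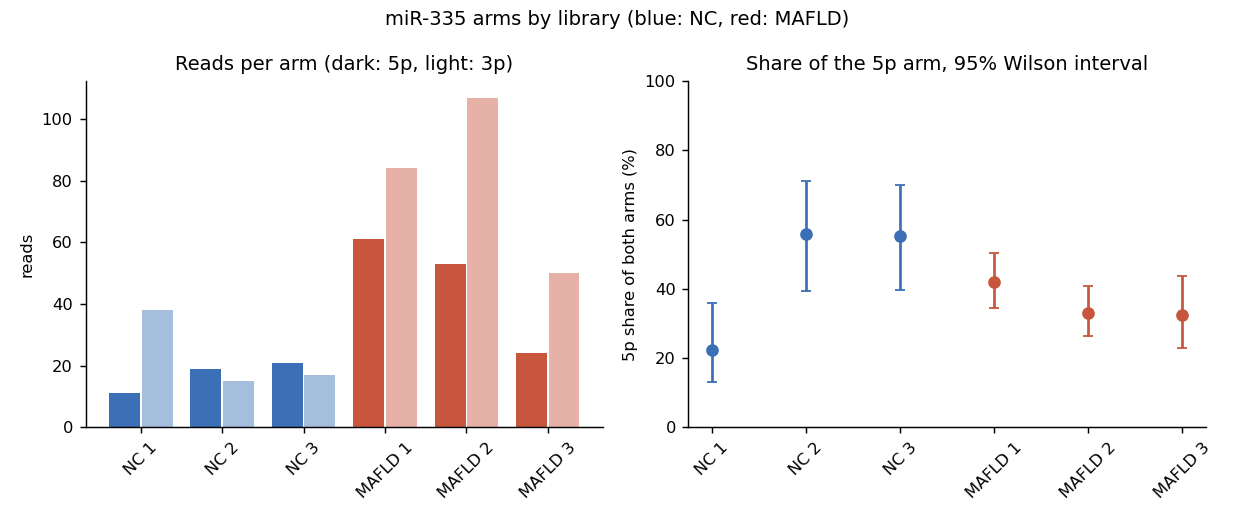
Reads of the 5p arm (dark) and the 3p arm (light) of miR-335 in each library, and the 5p share of both arms in percent with its 95% Wilson interval. NC replicate 1 has the lowest 5p share (22.4%), NC replicates 2 and 3 have the highest (55.9% and 55.3%), and the MAFLD libraries lie between them.

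With both arms added up, the miR-335 hairpin gave 19.2, 21.7 and 28.4 CPM in the NC libraries and 54.4, 34.1 and 48.2 CPM in the MAFLD libraries. Every MAFLD liver was above every NC liver, a separation that 15.2% of all single miRNAs tested also had. The mean was 23.1 ± 4.77 CPM (SD, n = 3) against 45.6 ± 10.4 CPM (SD, n = 3), and the log2 difference of log2(CPM + 1) was 0.94 (two-sided exact permutation test, p = 0.1, the smallest possible). Over the 6 libraries, Pearson's r between the log2(CPM + 1) values of the arms was 0.43. This is a description over libraries that also share their depth and their total.

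MiR-298-5p, the member of the Gnas region with the most reads, was near the limit of detection. It was read 1, 2 and 0 times in the NC libraries and 4, 5 and 5 times in the MAFLD libraries, which is 0.392, 1.27 and 0 CPM against 1.501, 1.07 and 3.26 CPM. MAFLD replicate 2 was below NC replicate 2, so the groups overlapped, and each level of the NC group was under 3 reads, the limit set here for what the depth can resolve. NC livers averaged 0.556 ± 0.653 CPM and MAFLD livers 1.94 ± 1.16 CPM (SD, n = 3 each). The NC mean was under the filter of 1 CPM, which miR-298-5p passed only through its MAFLD libraries. The log2 fold change was 0.93 (standard error 0.62, 95% interval −0.39 to 2.25), with an adjusted p of 0.411 from limma and p = 0.2 in the two-sided exact permutation test. A difference was not detectable at this depth. The fold change depended on the pseudocount, at 2.18 with 0.1 CPM added and 0.32 with 5 CPM added. Without NC replicates 1 and 2 it was 1.49 (adjusted p = 0.747 from limma).

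The neighbour Mir296 was read in 1 library. MiR-296-5p had 7 reads in MAFLD replicate 1, which is 2.63 CPM (95% Wilson interval 1.27 to 5.42), and 0 reads in the other 5 libraries. With 0 reads, the level that 3 reads would give is 1.18, 1.91 and 2.24 CPM in NC replicates 1 to 3 and 0.640 and 1.95 CPM in MAFLD replicates 2 and 3, and MAFLD replicate 1 was above each of these. The upper bound of the 95% Wilson interval for 0 reads is wider. It was 1.51, 2.45 and 2.87 CPM in NC replicates 1 to 3 and 0.820 and 2.50 CPM in MAFLD replicates 2 and 3. The level of MAFLD replicate 1 was below the bound of NC replicate 3 and above the others. A difference between the diets was not detectable at this depth. MiR-296-3p was at 0 in all 6 libraries.

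The miRNAs of Igf2 and H19 were at or near 0. MiR-483-3p had 1 read in NC replicate 3 (0.748 CPM) and 2 reads in MAFLD replicate 2 (0.427 CPM), and 0 in the other libraries. MiR-675-3p had 1 read in all, in MAFLD replicate 3 (0.652 CPM). All of these were under 3 reads, so neither miRNA could be compared between the diets at this depth. The limit that 3 reads give in the deepest library, MAFLD replicate 2, is 0.640 CPM.

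By mean level over all 6 libraries, the order was miR-335-3p (20.7 CPM), miR-335-5p (13.7 CPM), miR-298-5p (1.25 CPM), miR-296-5p (0.438 CPM), miR-483-3p (0.196 CPM) and miR-675-3p (0.109 CPM). These levels count whole mature miRNAs of 21 to 23 nt and were not divided by length. Among all 501 miRNAs tested they put miR-335-3p in position 178, miR-335-5p in 214 and miR-298-5p in 459. MiR-335-3p was above miR-335-5p in 4 of the 6 libraries, and their ranges overlapped (9.56 to 32.6 CPM and 4.31 to 22.9 CPM). MiR-335-5p was above miR-298-5p in 6 of 6 libraries with no overlap of the ranges, which parted the Mest miRNAs from all others. The ranges of miR-298-5p and the scarcer members overlapped, and differences in level between members were not tested.

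**Figure D3:**
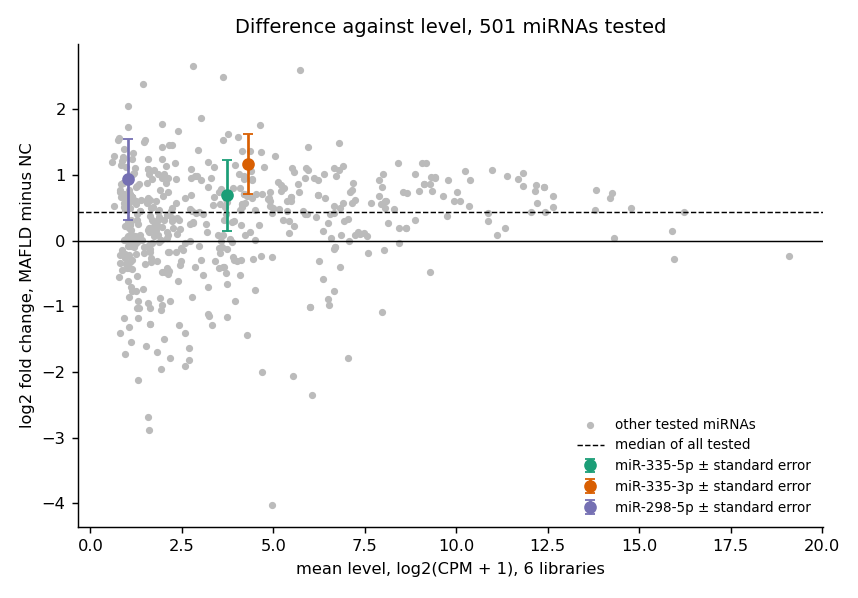
Log2 fold change, MAFLD minus NC (vertical axis), against the mean of log2(CPM + 1) over 6 libraries (horizontal axis) for the 501 miRNAs tested, with the 3 tested members in colour and their standard errors as bars. All 3 lie above the dashed median of all miRNAs (0.43) and within the spread of other miRNAs of similar level.

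All 3 tested members had a log2 fold change above 0, as did 71.3% (357) of the 501 miRNAs. MiR-298-5p passed the filter only through its MAFLD libraries (NC mean 0.556 CPM), which favours a value above 0. The other 2 are arms of 1 hairpin. The median of all 501 was 0.43, which bears on every level given per total. MiR-148a-3p alone made up 48.5% to 71.4% of each NC library and 46.8% to 56.7% of each MAFLD library. Relative to this median, the log2 fold change was 0.74 for miR-335-3p, 0.50 for miR-298-5p and 0.26 for miR-335-5p. With median-ratio scaling, where the median of all miRNAs was 0.044, miR-335-3p had a log2 fold change of 0.72 (unadjusted p = 0.0779, adjusted p = 0.323 from limma). On that scale it stood at 23.6, 12.3 and 10.1 in NC replicates 1 to 3 and at 24.4, 23.7 and 24.9 in MAFLD replicates 1 to 3, so NC replicate 1 came next to the MAFLD group and the gap between the groups nearly closed. With miR-148a-3p left out of the total, miR-335-3p had a log2 fold change of 0.86 (unadjusted p = 0.0499, adjusted p = 0.277 from limma). The recovered reads gave a log2 fold change of 0.70 with edgeR (unadjusted p = 0.0935, adjusted p = 0.332) and of 0.65 with DESeq2 (unadjusted p = 0.14, adjusted p = 0.446). Without NC replicates 1 and 2 it was 1.11 (unadjusted p = 0.0764, adjusted p = 0.747 from limma), where the lone NC library is assumed to vary like the MAFLD libraries.

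**Figure D4:**
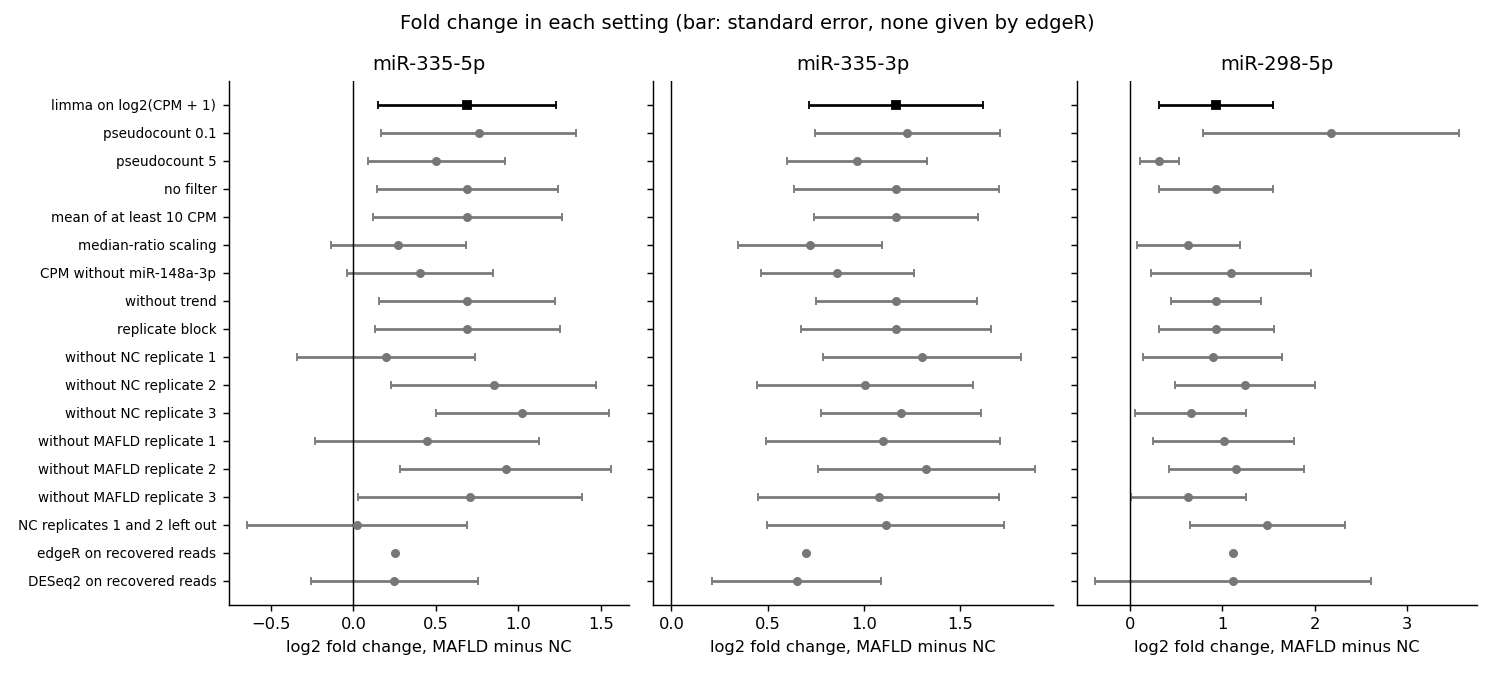
Log2 fold change, MAFLD minus NC (horizontal axis), of the 3 tested members in each setting (vertical axis), with the standard error as a bar where the method gives one and the black square for limma on log2(CPM + 1). MiR-335-3p stays between 0.65 and 1.32, and miR-335-5p falls to 0.023 when NC replicates 1 and 2 are left out.

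Levels of other cell types were set beside miR-335-3p. The endothelial list, miR-126a-3p and miR-126a-5p, both read, was the list whose sum also did not overlap between the diets, at 4710 to 6587 CPM in NC libraries and 7659 to 10155 CPM in MAFLD libraries. Within it miR-126a-3p did not overlap, while miR-126a-5p did (135 to 289 CPM in NC libraries and 280 to 509 CPM in MAFLD libraries). The part of this list in the result was not tested. The sums of the brain, muscle, blood, pancreas, mesenchyme and leukocyte lists overlapped between the groups. The mesenchymal list of miR-143-3p, miR-145a-5p, miR-199a-3p and miR-214-3p, named here because Mest is a gene of mesodermal tissue, summed to 12497 to 29684 CPM in NC libraries and 19498 to 26617 CPM in MAFLD libraries. Of the hepatocyte list, miR-122-3p and miR-192-5p were higher in every MAFLD library than in every NC library, while miR-122-5p, miR-194-5p and the sum overlapped. Such a separation, with MAFLD higher, was found for 15.2% of all miRNAs tested.

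The miRNAs with the most similar profile were found by Pearson's r of log2(CPM + 1) over the 6 libraries, which share their depth and total. For miR-335-5p these were miR-181a-5p (r = 0.98) and miR-10a-3p (r = 0.97). Both had their lowest level in NC replicate 1, at 47.5 and 3.53 CPM, as miR-335-5p did. Such a likeness follows in part from picking the highest r among all miRNAs tested over only 6 libraries. For miR-335-3p they were miR-22-5p (r = 0.96) and miR-203b-3p (r = 0.95). MiR-22-5p was at 85.1, 73.9 and 83.8 CPM in the NC libraries and at 104, 94.1 and 95.8 CPM in the MAFLD libraries. The log2 fold change of miR-22-5p was 0.27. MiR-203b-3p was at 14.1, 7.65 and 15.0 CPM in the NC libraries and at 27.4, 30.5 and 38.4 CPM in the MAFLD libraries. For miR-298-5p they were miR-5615-5p (r = 0.96) and miR-709 (r = 0.93), each with at most 4.56 CPM in a library.

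Other imprinted miRNA loci of the mouse are the large Dlk1-Dio3 cluster on chromosome 12, active from the maternal copy, and the rodent cluster in an intron of Sfmbt2. The lists for both were picked by the first part of the miRNA name. Positions were not checked, so a list can hold miRNAs from elsewhere. Of the chromosome 12 list, 34 of 92 miRNAs were tested, and 33 of these had a log2 fold change below 0, with a median of −1.17 and a range of −2.36 to 0.20, where 144 of all 501 miRNAs tested were below 0. None passed the adjusted p of 0.05 (limma), and 14 were lower and 0 higher at an unadjusted p under 0.05 and 1.5-fold, where 23 of all 501 were lower and 67 were higher. Of the Sfmbt2 list, 17 of 67 were tested, and 14 of these were above 0, as were 357 of all 501, with a median of 0.67 and a range of −0.76 to 1.10. At the same threshold 0 were lower and 0 were higher, and 9 of the 17 had the same reads in every library as another name of the list. The 3 tested members ranged from 0.69 to 1.17. Their median of 0.93 was the value of miR-298-5p, which was near the limit of detection and passed the filter only through its MAFLD libraries. With median-ratio scaling the median of the chromosome 12 list was −1.48 and that of the Sfmbt2 list was 0.44, with edgeR they were −2.14 and 0.52, and with DESeq2 −2.27 and 0.55. Without NC replicates 1 and 2, the libraries with the most brain-typical miRNAs, the medians were −1.18 and 0.17, where that of all miRNAs was −0.024. The difference between the lists was not tested, and miRNAs cut from a shared precursor are not independent of each other.

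**Figure D5:**
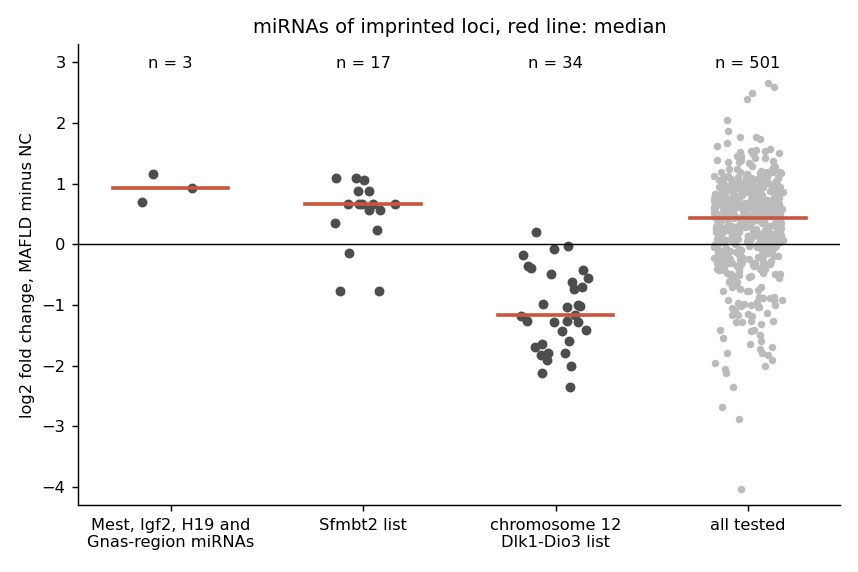
Log2 fold change, MAFLD minus NC (vertical axis), of the tested miRNAs from the Mest, Igf2, H19 and Gnas loci (3), the Sfmbt2 list (17), the chromosome 12 list (34) and all miRNAs tested (501), with the median as a red line. The 3 members lie between 0.69 and 1.17, the median of the chromosome 12 list is −1.17, and that of all miRNAs is 0.43.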

How the data were processed

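Small RNA libraries of 6 mouse livers (3 NC, 3 MAFLD) were made by the authors from total RNA freed of modifications that hinder adapter ligation, with inserts of small RNA size selected. The authors deposited CPM values, 1 column per library, mapped here by name, and 0 columns were without a sample. The submitters' processing notes name FastQC, cutadapt, Bowtie, edgeR and GRCm38 without versions. The miRNA database and counting rules are not given in the sources used here. Of the 17 tested names of the Sfmbt2 list, 9 had the same reads as another in every library. Reads that match several miRNAs thus appear under more than 1 name, and library totals may count a read more than once.

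Reads were recovered from the steps of the CPM values (100% within 0.02 of a whole number), and 79 of 1546 miRNAs were at 0 throughout. Groups were compared by limma 3.58.1 in R 4.3.3 (lmFit, eBayes with trend) on log2(CPM + 1) over the 501 miRNAs that averaged 1 CPM or more, two-sided, with Benjamini-Hochberg adjustment. Exact permutation tests used scipy 1.17.1. Alternatives were pseudocounts of 0.1 and 5, no filter or 10 CPM, median-ratio scaling, miR-148a-3p left out, no trend, a replicate block, libraries left out, edgeR 4.0.16 (quasi-likelihood, TMM) and DESeq2 1.42.0. The fits were tested on simulated data. Wilson intervals and the floor of 3 reads cover counting error only. Sequences and positions are from RefSeq and GENCODE M21. The members and lists were chosen with earlier results of these data known. All members are named, then the 2 most similar miRNAs for each tested member, seed mates and marker miRNAs. MiR-802-5p and miR-7047-5p were named after their values or sequences were seen. The replicate numbers come from the labels and belong to different mice.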

Additional observations from a re-analysis of the deposited data

Results flagged for a closer look

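MiR-296-5p was under the filter and entered no test, yet MAFLD replicate 1 held 2.63 CPM of it (7 reads). This was above every NC library, all at 0 reads, and above the highest level that 3 reads would give there (2.24 CPM in NC replicate 3). The upper bound of the 95% Wilson interval for 0 reads is wider, at 1.51, 2.45 and 2.87 CPM in NC replicates 1 to 3. By this limit the level stood above NC replicates 1 and 2 but not above NC replicate 3. MAFLD replicates 2 and 3 had 0 reads, the other arm of the hairpin had 0 reads in all 6 libraries, and the neighbour miR-298-5p had 4 reads in MAFLD replicate 1. The cause was not tested.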

How the results depend on the processing

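The log2 fold changes of miR-335-3p and miR-335-5p stayed above 0 and did not pass the adjusted p in any of 17 alternatives, nor did that of miR-298-5p in 16 (at 10 CPM it was not tested, and DESeq2 gave it no adjusted p). MiR-335-3p ran from 0.65 to 1.32 (adjusted p from 0.0553, without NC replicate 3, to 0.747), miR-335-5p from 0.023 to 1.02 (0.179 to 0.999) and miR-298-5p from 0.32 to 2.18 (0.379 to 0.747). Leaving out 1 library gave 1.00 to 1.32 for miR-335-3p, 0.20 to 1.02 for miR-335-5p and 0.63 to 1.25 for miR-298-5p. The difference in the 5p share of miR-335 kept its sign in 8 alternatives, from −19.7 to −2.98 percentage points. No arm share was computed for miR-483, miR-675 and miR-296, which had too few reads or 1 listed arm.

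The 1 miRNA past the adjusted p became 11 without the filter (4 higher, 7 lower), 2 with median-ratio scaling, also 2 when miR-148a-3p was left out, 0 without the trend (74 at an unadjusted p under 0.05), 0 without NC replicates 1 and 2 (37), and 28 with DESeq2 (7 higher, 21 lower). Leaving out 1 library gave 0 to 114, the most without NC replicate 3. The 90 past the unadjusted p and 1.5-fold (67 higher, 23 lower) became 59 at 10 CPM (52 and 7), 37 without NC replicates 1 and 2 (14 and 23), and 40 to 172 when 1 library was left out. They split into 27 higher and 44 lower with median-ratio scaling, 41 and 38 when miR-148a-3p was left out, 27 and 49 by edgeR, and 22 and 51 by DESeq2. The causes were not tested.

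The replicate block took the miRNAs past the adjusted p to 5, and gave miR-335-3p an adjusted p of 0.241, miR-335-5p 0.485 and miR-298-5p 0.404. Same-numbered livers deviated from their group means with a mean correlation of −0.018. With 3 livers in each group, this cannot exclude a batch shared by replicate number.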
